A study of Mus musculus with 39 samples.

Results

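Cyclin-dependent kinase inhibitors are the small proteins that hold back the kinases driving a cell through its division cycle, and 7 genes encode them in the mouse. The 7 genes were taken by name, and all 7 were found among the 55573 genes counted and passed the expression filter that left 18442 genes for testing. Cdkn1c had been picked because its counts were lower in injured nerves of the knockout at the later time point, that is, it was chosen by the genotype difference in injured nerves at 4 weeks, so its values in comparisons that use those injured nerves are given as a description without a test.

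The nerves came from adult C57BL/6 mice carrying loxP-flanked alleles of Lepr, the leptin receptor gene. Lepr-ctrl mice (Lepr fl/fl) had no Cre, and Lepr-cKO mice (Lepr fl/fl::Dhh-Cre) carried Cre under the promoter of desert hedgehog, which is active in the Schwann cell lineage, so other cells of the nerve keep the receptor. Mice of both sexes were used between 2 and 4 months of age. One sciatic nerve was crushed at mid-femoral level, the opposite nerve served as the healthy one, and the endoneurium (the tissue inside the perineurial sheath) distal to the crush was sequenced in bulk 2 or 4 weeks post crush (wpc). Healthy nerves numbered 5 for Lepr-ctrl and 6 for Lepr-cKO at 2 wpc and 5 of each genotype at 4 wpc. Injured nerves numbered 5 of each genotype at 2 wpc and 4 of each at 4 wpc. The 39 libraries came from 22 mice, 17 of which gave both nerves, the libraries of a group coming from different mice (named below as in the labels, where WT marks Lepr-ctrl and KO marks Lepr-cKO at 4 wpc, and the prefix SLRKO2wpc stands for either genotype), and each library held between 10905806 and 45016322 counts.

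The inhibitors fall into 2 families. The Cip/Kip proteins, encoded by Cdkn1a (p21), Cdkn1b (p27) and Cdkn1c (p57), bind cyclin and kinase together and can hold many cyclin-kinase pairs. The INK4 proteins, encoded by Cdkn2a (p16Ink4a), Cdkn2b (p15), Cdkn2c (p18) and Cdkn2d (p19), bind Cdk4 and Cdk6 and keep them from D-type cyclins. Cdkn2a also gives p19Arf from another first exon, a protein that holds back Mdm2 and so stabilises p53, and counts per gene cannot tell these 2 transcripts apart. After a crush, Schwann cells leave the myelinating state, divide and later remyelinate regrown axons, while macrophages enter the nerve.

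In GRCm38, Cdkn1a lies on chromosome 17 (29090976 to 29100727, plus strand), Cdkn1b on chromosome 6 (134920401 to 134925513, plus strand) and Cdkn1c on chromosome 7 (143458339 to 143461050, minus strand). Cdkn2a (89274471 to 89294653) and Cdkn2b (89306299 to 89311039) are neighbours on the minus strand of chromosome 4, which also holds Cdkn2c (109660876 to 109667189, minus strand). Cdkn2d lies on chromosome 9 (21288410 to 21291407, minus strand). The library kit does not mark strand, so reads from overlapping genes on opposite strands cannot be told apart. Cdkn1c shares 625 bases, 30.7% of its exon length, with the antisense gene Gm44732, which had 0 to 1 counts per library. Cdkn1a shares 273 bases, 7.68%, with AC167363.2 on the minus strand, which had 1 to 233 counts where Cdkn1a had 1203 to 31914. The other 5 genes overlap no annotated exon of another gene.

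The bases just before the transcription starts are shown for the 4 genes with the steadiest response to injury, 2 that were lower in every pair of nerves and 2 that were higher. Sequences are RefSeq's for GRCm38.p6, in the direction of the gene, and end 1 base before the start. RefSeq promoters matched 6 of the 7 genes, with 9 starts in all. Capitals mark the GC box GGGCGG (the letters bound by Sp1-type factors) or its reverse complement CCGCCC, and ACATGTC or its reverse complement GACATGT, the core of a p53 half-site. The second motif was chosen after the sequences were seen.
Cdkn1a upstream start, chr17:29090879-29090978, plus strand: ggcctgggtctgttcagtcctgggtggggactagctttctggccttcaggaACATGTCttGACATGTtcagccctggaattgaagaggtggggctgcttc
Cdkn1a downstream start, chr17:29093669-29093768, plus strand: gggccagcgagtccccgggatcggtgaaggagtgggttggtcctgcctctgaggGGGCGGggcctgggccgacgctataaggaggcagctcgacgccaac
Cdkn1b, chr6:134920301-134920400, plus strand: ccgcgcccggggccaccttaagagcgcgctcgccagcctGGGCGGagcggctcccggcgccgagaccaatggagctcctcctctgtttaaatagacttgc
Cdkn2a upstream start, chr4:89294620-89294719, minus strand: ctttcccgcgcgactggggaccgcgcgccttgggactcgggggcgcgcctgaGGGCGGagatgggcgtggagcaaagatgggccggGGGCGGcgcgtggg
Cdkn2a downstream start, chr4:89282193-89282292, minus strand: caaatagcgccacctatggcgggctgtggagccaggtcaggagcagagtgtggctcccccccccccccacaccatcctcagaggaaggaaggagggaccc
Cdkn2b, chr4:89311033-89311132, minus strand: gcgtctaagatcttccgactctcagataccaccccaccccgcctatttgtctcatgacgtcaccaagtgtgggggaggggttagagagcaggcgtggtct

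The upstream start of Cdkn1a held 2 matches to the p53 half-site core within 100 bases, and the other 5 windows shown held 0. Among all 32851 promoter windows of this length, 0.502% held at least 1 such match and 0.0548% held 2 or more. As the motif was chosen after the sequences were seen, these shares cannot measure how unusual the Cdkn1a window is. A GC box stood before the downstream start of Cdkn1a and before Cdkn1b, and 2 stood before the upstream start of Cdkn2a, whereas the windows of the Cdkn2a downstream start and of Cdkn2b held 0. GC boxes were present in 24.7% of all windows. These are matches of letters only, and the count per gene does not say which start was used.

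In the healthy nerve, Cdkn1a and Cdkn1b were by far the most abundant inhibitor transcripts. In healthy Lepr-ctrl nerves at 2 wpc, levels in CPM per kb (library-scaled counts, CPM, divided by the exon length of the gene in kilobases) were 159 ± 14.1 for Cdkn1a, 152 ± 15.4 for Cdkn1b, 12.8 ± 1.65 for Cdkn2d, 6.82 ± 2.71 for Cdkn1c, 5.46 ± 0.504 for Cdkn2c, 4.74 ± 1.35 for Cdkn2b and 3.03 ± 0.973 for Cdkn2a (SD, n = 5). In these nerves Cdkn1a and Cdkn1b did not differ beyond their spread, and nor did neighbours in the order from Cdkn1c down to Cdkn2a. Healthy Lepr-ctrl nerves at 4 wpc, from other mice, had the same order of means. There Cdkn1a (216 ± 24.5) and Cdkn1b (118 ± 8.04) stood apart, and Cdkn2a was again lowest at 2.59 ± 0.827 (CPM per kb, SD, n = 5). In injured Lepr-ctrl nerves at 4 wpc the order became Cdkn1a (73.2 ± 2.66), Cdkn1b (61.0 ± 9.85), Cdkn2a (40.3 ± 5.71), Cdkn1c (34.2 ± 11.6), Cdkn2b (17.9 ± 4.79), Cdkn2d (12.7 ± 3.07) and Cdkn2c (5.88 ± 1.12; CPM per kb, SD, n = 4). Cdkn2a thus moved from the lowest to the third place, and its level there did not differ beyond the spread from that of Cdkn1c.

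**Figure D1:**
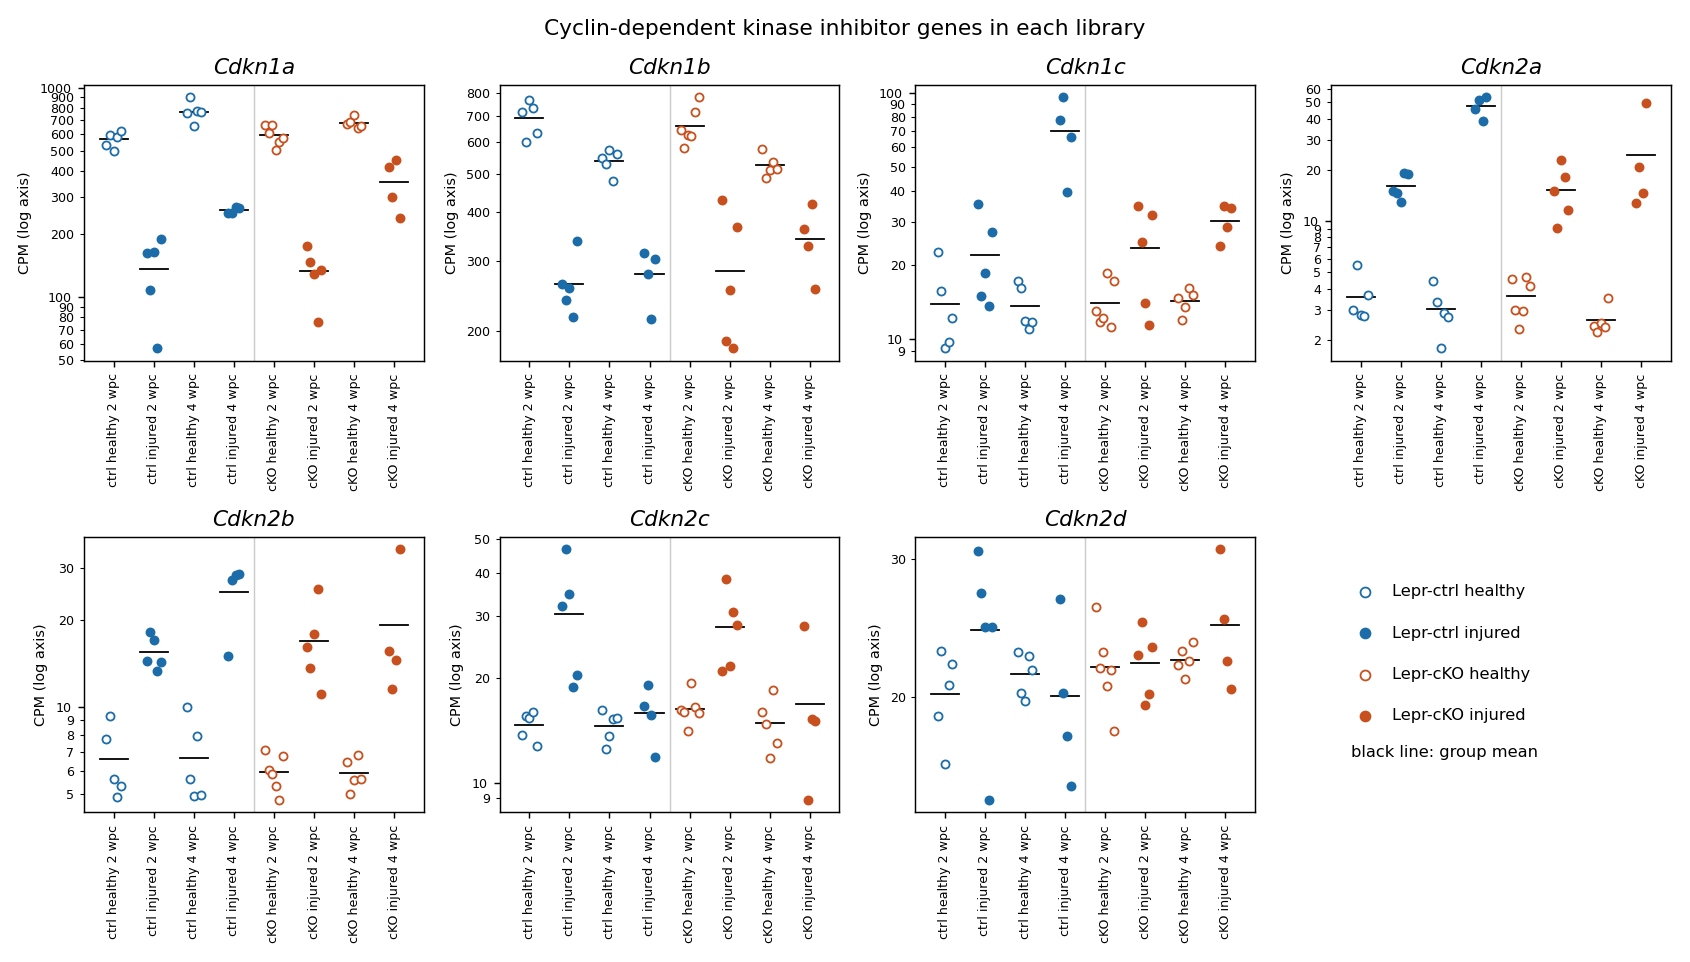
Level of each inhibitor gene in every library, in CPM (counts scaled to a common library size) on log axes, for Lepr-ctrl (blue) and Lepr-cKO (orange) nerves, healthy (open) or injured (filled), with a black line at each group's mean. Injured nerves sit below healthy ones for Cdkn1a and Cdkn1b and above them for Cdkn2a and Cdkn2b in all 4 pairs of groups, and injured Lepr-ctrl nerves at 4 wpc reach 95.7 CPM for Cdkn1c.

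After the crush the 2 abundant Cip/Kip genes were lower, and Cdkn2a and Cdkn2b higher, in both genotypes at both times. A member was called where edgeR's adjusted p was below 0.05 and the log2 fold change passed 1 in size. In Lepr-ctrl at 2 wpc, 5 of the 7 members were called (3 higher, 2 lower), against 34.1% of all genes tested (19.8% higher, 14.3% lower). In Lepr-cKO at 2 wpc, 4 of 7 were called (2 higher, 2 lower), against 34.3% of all genes (20.9% higher, 13.4% lower). At 4 wpc, where Cdkn1c was not counted, 3 of 6 were called in Lepr-ctrl (2 higher, 1 lower), against 36% of all genes (20.1% higher, 15.9% lower), and 2 of 6 in Lepr-cKO (both higher), against 27.6% (16.8% higher, 10.8% lower). On adjusted p alone, 6 of 7 passed at 2 wpc in each genotype, against a background of 63.9% (Lepr-ctrl) and 65.1% (Lepr-cKO), and 4 of 6 at 4 wpc, against 63.6% and 55.3%. These shares of members, either way, lie above the background. The family is small and the shares were not tested, so nothing is read from them. In the marker and gene lists below, genes were counted as risen or fallen on adjusted p alone, which 33.7% and 30.2% of all genes did in Lepr-ctrl at 2 wpc, 32.4% and 31.2% at 4 wpc, 35.9% and 29.2% in Lepr-cKO at 2 wpc, and 29.6% and 25.8% at 4 wpc. Median log2 fold changes were 0.66, 0.74, 0.01 and 0.17 over the members counted, for Lepr-ctrl and Lepr-cKO at 2 wpc and then at 4 wpc, against 0.08, 0.10, 0.02 and 0.06 over all genes. Injured nerves of bulk tissue also differ in their mix of cells, and fewer cells of a type cannot be told apart from less RNA per cell.

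**Figure D2:**
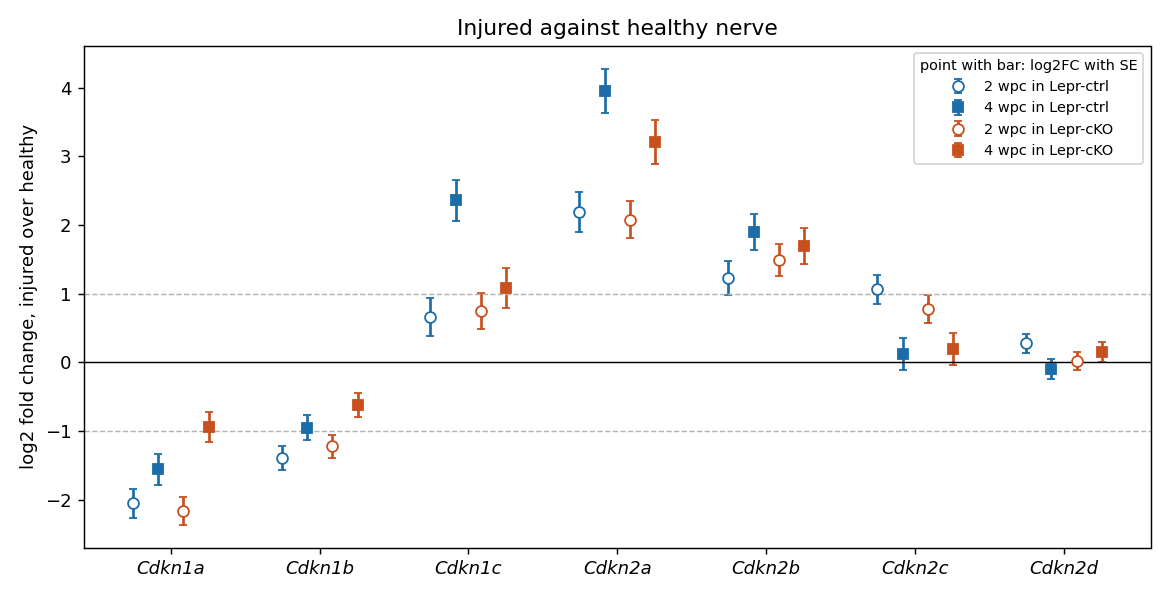
Log2 fold change of injured over healthy nerve (points) with its standard error (bars) for the 7 genes in the 4 injury comparisons, open symbols at 2 wpc and filled at 4 wpc, blue for Lepr-ctrl and orange for Lepr-cKO, with dashed lines at the fold limit of 1. Cdkn1a lies lowest at -2.16 and Cdkn2a highest at 3.96; the 4 wpc points of Cdkn1c are a description.

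Cdkn1a encodes p21, the inhibitor best known as a target of p53 and also present in differentiated cells. At 2 wpc its CPM in Lepr-ctrl were 534, 595, 497, 578 and 623 in healthy nerves and 162, 108, 164, 57.1 and 190 in injured ones. The groups were far apart, and Cdkn1a fell by 2.05 on the log2 scale (SE 0.21, edgeR adjusted p = 2.08e-10). In Lepr-cKO at 2 wpc, healthy nerves ranged from 503 to 664 CPM with a median of 592, and injured ones had 176.1, 147.2, 129.3, 76.0 and 134, a fall by 2.16 (SE 0.20, edgeR adjusted p = 3.82e-11).

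At 4 wpc Cdkn1a was still below the healthy level, less so in the knockout than at 2 wpc. Lepr-ctrl nerves had 752, 896, 652, 769 and 768 CPM when healthy and 253, 251, 269 and 268 when injured, the 4 injured values having an SD of 9.44 CPM. The fall was 1.56 on the log2 scale (SE 0.22, edgeR adjusted p = 2.26e-07). Lepr-cKO nerves had 673, 688, 741, 639 and 653 CPM when healthy and 420, 302, 452 and 239 when injured, a fall by 0.94 (SE 0.22, edgeR adjusted p = 4.25e-04) that did not reach the fold limit. In the knockout the injury response of Cdkn1a was smaller at 4 than at 2 wpc by 1.22 on the log2 scale (SE 0.29, edgeR adjusted p = 0.0155); without the injured nerve of mouse KO-176 the difference was 1.05 (adjusted p = 0.0746). In Lepr-ctrl the same difference was 0.49 (SE 0.29, edgeR adjusted p = 0.3). The nerves at 2 and 4 wpc came from different mice. Healthy Lepr-ctrl means of Cdkn1a were 565 CPM at 2 wpc and 767 CPM at 4 wpc. Here and below, a change of the response over time cannot be told apart from a difference between these sets of mice.

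Cdkn1b encodes p27, which accumulates in cells that have left the cycle and is removed mainly by protein breakdown. Its CPM in Lepr-ctrl at 2 wpc were 715, 601, 769, 731 and 635 in healthy and 262, 239, 257, 217 and 339 in injured nerves. It fell by 1.39 on the log2 scale (SE 0.17, edgeR adjusted p = 1.05e-08). In Lepr-cKO, healthy nerves ranged from 582 to 780 CPM (median 636) and injured ones had 429, 188, 254, 181 and 365, a fall by 1.22 (SE 0.16, edgeR adjusted p = 6.86e-08). The knockout's injured nerves were widely spread but none reached the lowest healthy value.

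At 4 wpc Cdkn1b stood at 546, 530, 573, 480 and 562 CPM in healthy and 314, 279, 214 and 303 CPM in injured Lepr-ctrl nerves. The fall of 0.95 on the log2 scale (SE 0.18, edgeR adjusted p = 2.52e-05) passed on adjusted p and not on the fold limit. In Lepr-cKO, 579, 486, 511, 537 and 515 CPM in healthy nerves stood against 362, 328, 418 and 256 in injured ones, a fall by 0.62 (SE 0.18, edgeR adjusted p = 0.00356). Cdkn1a and Cdkn1b were lower in the injured nerve of all 17 mice with both nerves, with log2 differences of -2.73 to -0.68 and of -1.79 to -0.29. The share of all genes that were lower in all 17 mice was not counted. Healthy and injured groups did not overlap for either gene in any of the 4 comparisons, as was the case for 47.9% and 54.8% of all genes in Lepr-ctrl at 2 and 4 wpc and for 41.4% and 41.9% in Lepr-cKO.

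Markers of myelinating Schwann cells moved alongside these 2 genes. The summed level of 8 such markers (Mbp, Pmp22, Prx, Mag, Egr2, Ncmap, Drp2, Cldn19) ranged from 44629 to 68265 CPM in healthy and from 4880 to 35872 CPM in injured nerves, with no marker at 0 in any library. Of the 8, 7 fell in Lepr-ctrl at 2 wpc and 8 at 4 wpc, and 8 fell in Lepr-cKO at 2 wpc and 6 at 4 wpc. Among injured nerves at 4 wpc the sum was 17239, 17877, 19714 and 14250 CPM in Lepr-ctrl and 35872, 25559, 33179 and 17002 CPM in Lepr-cKO, so that mouse KO-177, with the lowest Cdkn1a of the knockout, also had its lowest marker sum. Control nerves did not all show the same match. Mouse WT-178, with the lowest control sum of 14250 CPM, had 268 CPM of Cdkn1a. Mouse WT-173, with the highest control sum of 19714 CPM, had the highest control Cdkn1a (269 CPM) but the lowest control Cdkn1b (214 CPM). The part of these cells in the Cdkn1a and Cdkn1b values was not tested.

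Cdkn1c encodes p57, expressed from the maternal chromosome and known for taking cells out of the cycle during development. At 2 wpc its CPM in Lepr-ctrl were 22.7, 15.7, 9.21, 9.74 and 12.2 in healthy and 35.3, 14.9, 18.5, 13.7 and 27.3 in injured nerves. The groups overlapped, and Cdkn1c rose by 0.66 (SE 0.28, edgeR adjusted p = 0.0367), short of the fold limit, and it no longer passed on adjusted p in 5 of the 10 fits that leave out 1 library, with 0.40 (adjusted p = 0.207) without the injured nerve of mouse SLRKO2wpc123. In Lepr-cKO at 2 wpc, healthy nerves ranged from 11.2 to 18.6 CPM (median 12.6) and injured ones had 34.7, 24.7, 14.0, 11.4 and 32.1, a rise of 0.74 (SE 0.26, edgeR adjusted p = 0.0135). Without the injured nerve of mouse SLRKO2wpc125 it was 0.58 (adjusted p = 0.0587).

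Cdkn1c stood highest in injured Lepr-ctrl nerves at 4 wpc. Those nerves had 77.8, 95.7, 39.4 and 66.3 CPM, against 23.9, 34.6, 28.4 and 34.0 CPM in injured Lepr-cKO nerves, and the groups did not overlap, as for 5.68% of all genes, from which nothing is read. Healthy nerves at 4 wpc had 17.3, 16.1, 11.8, 11.01 and 11.7 CPM in Lepr-ctrl and 14.7, 11.9, 13.5, 16.1 and 15.1 CPM in Lepr-cKO. The log2 fold change of injured over healthy nerve was 2.36 (SE 0.30) in Lepr-ctrl and 1.08 (SE 0.29) in Lepr-cKO, and that of knockout over control in injured nerves was -1.21 (SE 0.31). This last value is the one by which the gene was picked. The next lowest member was Cdkn2a with -0.96 (SE 0.31), and its groups overlapped. Over all mice with both nerves, Cdkn1c was higher in the injured nerve of 16 of 17, by up to 3.02 on the log2 scale, and lower in 1 Lepr-cKO mouse at 2 wpc. The pairs at 4 wpc include the injured nerves by which the gene was picked, so this count is a description.

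The genes next to Cdkn1c in its imprinted region did not share 1 direction after injury. Of 8 neighbours listed, 7 were tested; 3 rose and 2 fell in Lepr-ctrl at 2 wpc, 2 rose and 2 fell at 4 wpc, 3 rose and 3 fell in Lepr-cKO at 2 wpc, and 2 rose and 2 fell at 4 wpc, shares near those of all genes given above. Examples from Lepr-ctrl at 4 wpc were Slc22a18, a membrane transporter gene, with a log2 fold change of 2.19 (SE 0.41, edgeR adjusted p = 2.21e-05) and Cd81, a tetraspanin gene, with -1.31 (SE 0.23, edgeR adjusted p = 9.62e-06). Of 13 other imprinted genes, 5 rose in each of the 4 injury comparisons and 2 to 4 fell, which is near the 29.6% to 35.9% of all genes that rose and the 25.8% to 31.2% that fell. H19, a maternally expressed non-coding RNA, rose by 3.67 in Lepr-ctrl at 4 wpc (SE 0.66, edgeR adjusted p = 1.27e-05), and Plagl1, a zinc finger gene, by 2.17 (SE 0.36, edgeR adjusted p = 4.08e-06).

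Cdkn2a had the largest change of the family at 4 wpc in both genotypes. At 2 wpc Cdkn1a changed by a similar size, with -2.05 in Lepr-ctrl and -2.16 in Lepr-cKO. In Lepr-ctrl at 2 wpc the CPM of Cdkn2a were 3.003, 5.49, 2.82, 2.77 and 3.69 in healthy and 14.9, 14.7, 13, 19.2 and 19.02 in injured nerves, a rise of 2.19 on the log2 scale (SE 0.29, edgeR adjusted p = 6.92e-08). In Lepr-cKO, healthy nerves ranged from 2.32 to 4.69 CPM (median 3.58) and injured ones had 14.98, 9.04, 22.8, 18.1 and 11.6, a rise of 2.08 (SE 0.27, edgeR adjusted p = 4.74e-08). The injured groups of the 2 genotypes overlapped, with a log2 difference of -0.08 and a 95% interval from -0.62 to 0.46.

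At 4 wpc injured Lepr-ctrl nerves had 45.4, 51.8, 38.6 and 53.2 CPM of Cdkn2a, and healthy ones 4.45, 3.33, 1.79, 2.89 and 2.72, a rise of 3.96 (SE 0.32, edgeR adjusted p = 1.81e-12). Injured Lepr-cKO nerves had 12.7, 20.8, 14.6 and 49.4 CPM, and healthy ones 2.42, 2.23, 2.504, 2.38 and 3.52, a rise of 3.21 (SE 0.31, edgeR adjusted p = 2.69e-10). Mouse KO-177 alone among the knockouts reached the control range, and without its injured nerve the rise was 2.60 (adjusted p = 1.71e-09). In Lepr-ctrl the injury response of Cdkn2a was larger at 4 than at 2 wpc by 1.77 (SE 0.41, edgeR adjusted p = 0.00612), the 1 of 6 members called in that comparison, where 4.42% of all genes were called. In Lepr-cKO the same difference was 1.13 (SE 0.41, edgeR adjusted p = 0.149) and 1 of 6 members, Cdkn1a, was called against 1.42% of all genes.

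Cdkn2b, the neighbour of Cdkn2a and a gene known to respond to TGF-beta, was also higher in injured nerves, with smaller changes. At 2 wpc it had 7.76, 9.30, 5.64, 4.90 and 5.34 CPM in healthy and 14.4, 18.1, 17.02, 13.3 and 14.3 CPM in injured Lepr-ctrl nerves, a rise of 1.23 (SE 0.25, edgeR adjusted p = 5.51e-05). In Lepr-cKO it ranged from 4.78 to 7.12 CPM (median 5.97) in healthy nerves and had 16.1, 13.6, 17.8, 25.4 and 11.1 CPM in injured ones, a rise of 1.49 (SE 0.23, edgeR adjusted p = 1.23e-06). Injured and healthy groups stayed apart in both genotypes.

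At 4 wpc Cdkn2b had 10.01, 5.63, 4.92, 7.92 and 4.98 CPM in healthy and 14.98, 27.5, 28.5 and 28.7 CPM in injured Lepr-ctrl nerves, a rise of 1.90 (SE 0.26, edgeR adjusted p = 1.27e-07). In Lepr-cKO, 6.44, 5.02, 5.61, 6.82 and 5.66 CPM in healthy nerves stood against 15.5, 11.5, 14.5 and 34.9 CPM in injured ones, a rise of 1.69 (SE 0.26, edgeR adjusted p = 1.63e-06) that was 1.22 (adjusted p = 6.39e-05) without mouse KO-177. Both genes of this locus were higher in the injured nerve of all 17 mice, Cdkn2a by 1.45 to 4.85 and Cdkn2b by 0.64 to 2.53 on the log2 scale. The share of all genes that were higher in all 17 mice was not counted. Across the 39 libraries the log2 CPM of Cdkn2a and Cdkn2b had a Pearson r of 0.932, a description that rests largely on the split between healthy and injured nerves.

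Macrophage markers moved in the same direction as Cdkn2a and Cdkn2b. The summed level of 8 markers (Cd68, Adgre1, Csf1r, Cd14, Ptprc, Lyz2, Aif1, Mrc1) was 92.9 to 315 CPM in healthy and 767 to 3756 CPM in injured nerves, with no marker at 0 in any library. Of the 8, 6 rose at 2 wpc and 8 at 4 wpc in each genotype. In injured nerves at 4 wpc the sum was 1696, 3756, 2930 and 2937 CPM in Lepr-ctrl and 1780, 1655, 1188 and 2009 CPM in Lepr-cKO, the highest knockout value again being that of mouse KO-177. Other nerves did not follow that order. Mouse KO-169, with the next highest knockout sum of 1780 CPM, had the lowest knockout Cdkn2a (12.7 CPM). Mouse WT-170, with the lowest control sum of 1696 CPM, had 45.4 CPM of Cdkn2a. Of 4 T cell markers (Cd3e, Cd3g, Cd8a, Cd4), all 4 rose in each injury comparison, with sums of 0.0895 to 1.26 CPM in healthy and 3.68 to 21.1 CPM in injured nerves with Cd3e at 0 in 8, Cd3g in 1 and Cd8a in 15 of the 39 libraries. The part of these cells in the Cdkn2a and Cdkn2b values was not tested.

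**Figure D3:**
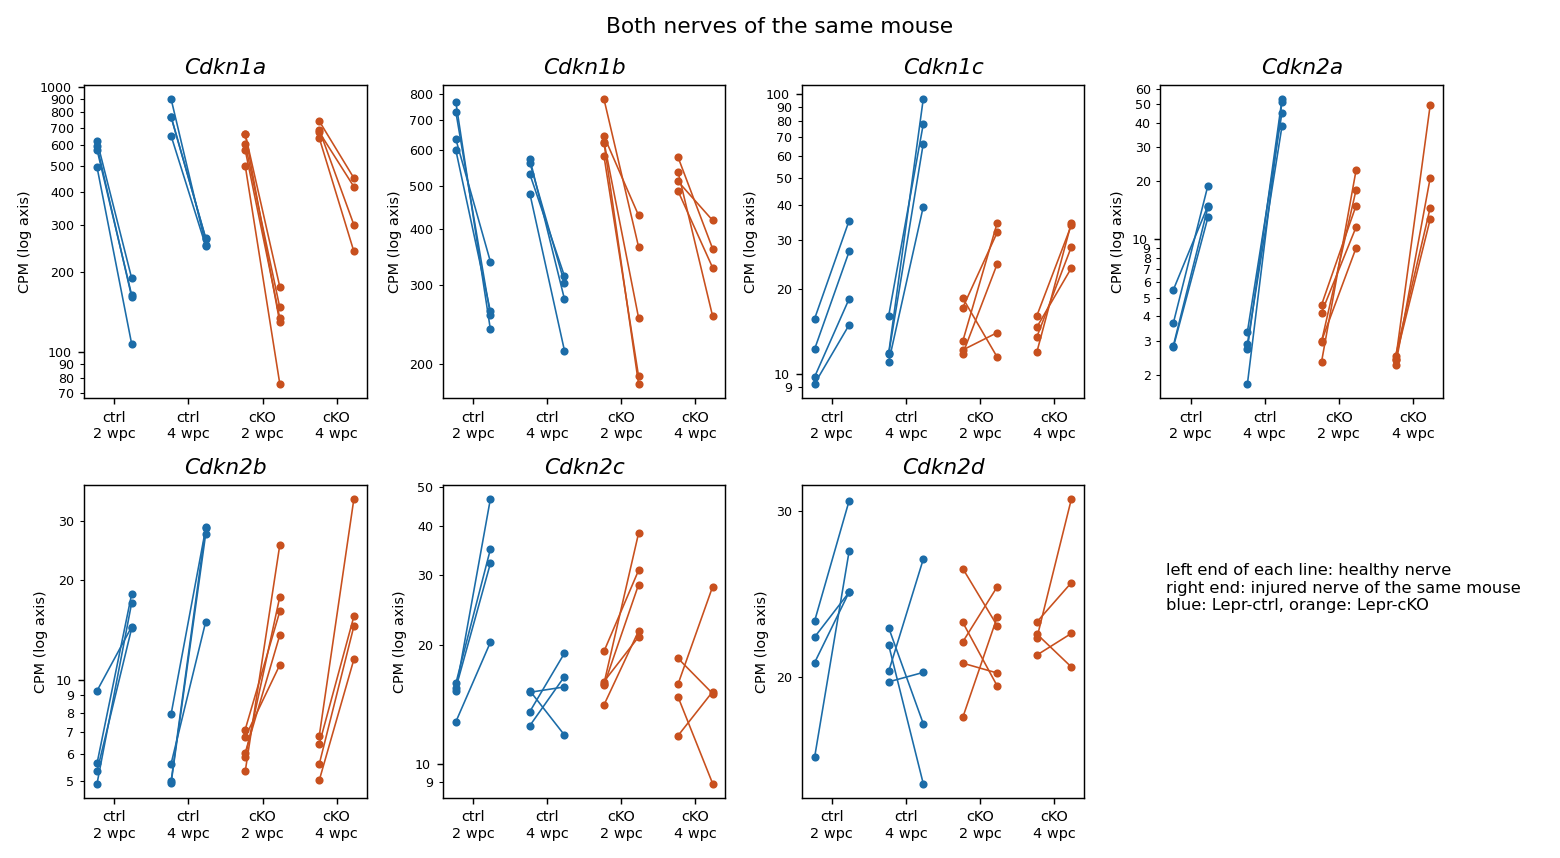
Levels in the healthy (left end) and injured (right end) nerve of the same mouse, in CPM on log axes, for the 17 mice that gave both nerves, by genotype and time after crush. Every line goes down for Cdkn1a and Cdkn1b and up for Cdkn2a and Cdkn2b, and 16 of 17 go up for Cdkn1c.

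Cdkn2c changed at the earlier time. It encodes p18, an INK4 protein found in many dividing and differentiating cells. At 2 wpc it had 13.7, 15.5, 15.3, 16.0 and 12.8 CPM in healthy and 32.1, 46.8, 34.9, 18.7 and 20.3 CPM in injured Lepr-ctrl nerves, a rise of 1.06 (SE 0.22, edgeR adjusted p = 6.7e-05). In Lepr-cKO, healthy nerves ranged from 14.1 to 19.3 CPM (median 16.1) and injured ones had 20.9, 38.3, 21.7, 30.9 and 28.4, a rise of 0.78 (SE 0.20, edgeR adjusted p = 0.00114).

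By 4 wpc the groups of Cdkn2c overlapped. Injured Lepr-ctrl nerves had 16.6, 19.1, 15.7 and 11.8 CPM, around healthy values of 12.5 to 16.1, with 2 above and 1 below them all. Injured Lepr-cKO nerves had 28.1, 8.92, 15.2 and 15.1 CPM, around healthy values of 11.8 to 18.5, with 1 above and 1 below them all. The log2 fold changes were 0.12 (SE 0.23, edgeR adjusted p = 0.661) and 0.19 (SE 0.23, edgeR adjusted p = 0.494). The change of the injury response between times was -0.94 in Lepr-ctrl (SE 0.32, edgeR adjusted p = 0.0553), and -0.97 (adjusted p = 0.0461) with the 2 nerves of a mouse paired. In Lepr-cKO it was -0.59 (SE 0.31, edgeR adjusted p = 0.373).

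Cdkn2d, which encodes the INK4 protein p19, was the steadiest of the 7. Group means lay between 20.02 and 24.7 CPM, and the log2 fold changes after injury were 0.27 in Lepr-ctrl and 0.02 in Lepr-cKO at 2 wpc and -0.10 and 0.15 at 4 wpc (SE 0.13 to 0.15), none past the threshold, with 95% intervals that together ran from -0.39 to 0.55. The lowest and the highest of all values were in injured nerves, 14.8 CPM in Lepr-ctrl mouse SLRKO2wpc144 at 2 wpc and 30.9 CPM in Lepr-cKO mouse KO-169 at 4 wpc. For Lepr-ctrl at 2 wpc the edgeR adjusted p was 0.0855, and it was 0.0254 with a change of 0.39 when the 2 nerves of a mouse were paired.

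The make-up of the family also differed between healthy and injured nerves. The summed level of the 7 genes per length was 344 ± 6.74 CPM per kb in healthy (SD, n = 5) and 159 ± 29.6 in injured Lepr-ctrl nerves (n = 5) at 2 wpc, and 367 ± 23.4 (n = 5) and 245 ± 22.3 (n = 4) at 4 wpc. In Lepr-cKO it was 347 ± 21.0 (n = 6) and 161 ± 32.2 (n = 5) at 2 wpc, and 340 ± 10.2 (n = 5) and 246 ± 27.3 (n = 4) at 4 wpc. Cdkn1a made up 46.3% ± 3.77 of that sum in healthy and 23.3% ± 6.03 in injured Lepr-ctrl nerves at 2 wpc (SD, n = 5 each). Cdkn2a went from 0.884% ± 0.292 to 9.08% ± 3.12 in the same nerves, and at 4 wpc from 0.7005% ± 0.206 (n = 5) to 16.4% ± 1.15 (n = 4).

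In injured nerves at 4 wpc the mean shares of 3 members differed most between the genotypes, which is given without a test because the contrast is the one used to pick Cdkn1c. Cdkn1a made up 30.1% ± 3.81 in Lepr-ctrl and 40.0% ± 7.54 in Lepr-cKO, Cdkn1c 13.7% ± 3.72 and 6.16% ± 1.63, and Cdkn2a 16.4% ± 1.15 and 8.85% ± 6.77 (SD, n = 4 each). The Cdkn2a shares overlapped, with 15.4% to 17.8% in Lepr-ctrl and 4.15% to 18.6% in Lepr-cKO.

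**Figure D4:**
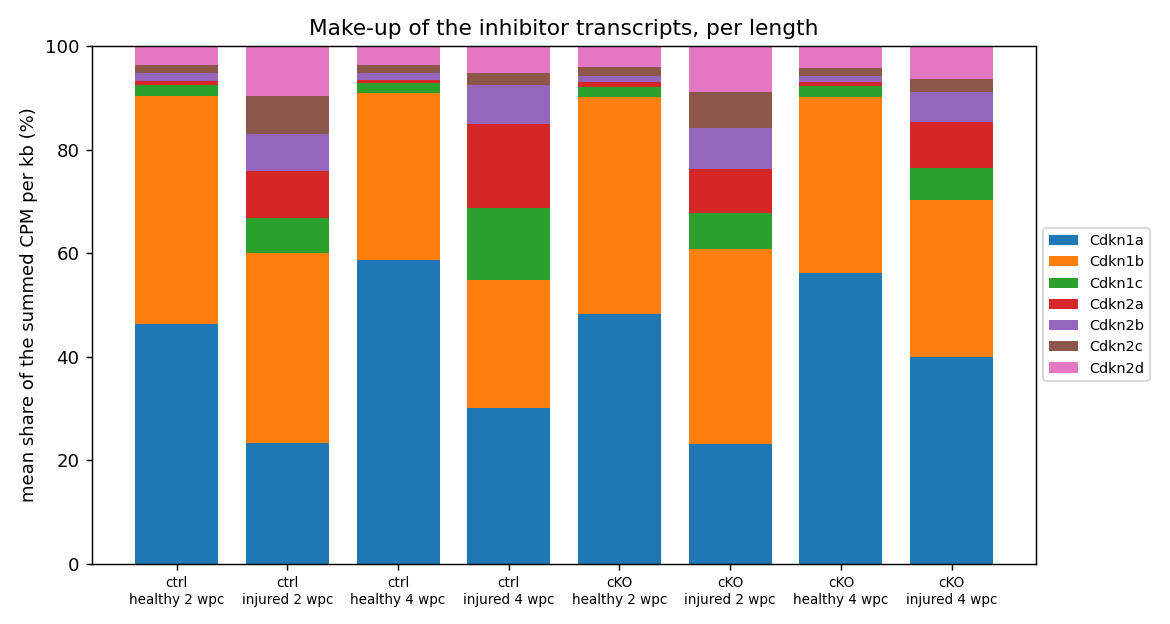
Mean share of each inhibitor gene in the summed CPM per kb of the 7 genes (stacked bars, in %) in the 8 groups of 4 to 6 libraries. Cdkn1a and Cdkn1b fill most of each healthy bar, and Cdkn2a grows to 16.4% in injured Lepr-ctrl nerves at 4 wpc.

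The comparison of genotypes asks whether the leptin receptor in Schwann cells bears on these genes. In healthy nerves, 0 of 7 members were called at 2 wpc and 0 of 7 at 4 wpc by edgeR (background 0.00542% each), 0 had an unadjusted p under 0.05, and DESeq2 also called 0. Log2 differences of Lepr-cKO over Lepr-ctrl ran from -0.14 to 0.15 at 2 wpc and from -0.21 to 0.07 at 4 wpc, with 95% intervals reaching from -0.60 to 0.57 and from -0.79 to 0.62. In injured nerves at 2 wpc, 0 of 7 were called by edgeR (background 0.569%), 0 had an unadjusted p under 0.05 and DESeq2 called 0, with differences from -0.14 to 0.12 and intervals from -0.62 to 0.63. The intervals given are the widest reach over all members. With 5 or 6 nerves a group, differences inside a member's own interval could have been missed.

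In injured nerves at 4 wpc the genotype values are a description. Apart from Cdkn1c and Cdkn2a, the log2 differences of Lepr-cKO over Lepr-ctrl were 0.44 for Cdkn1a (SE 0.23), 0.30 for Cdkn1b (SE 0.19), -0.39 for Cdkn2b (SE 0.27), 0.09 for Cdkn2c (SE 0.24) and 0.31 for Cdkn2d (SE 0.16). None of the 6 members besides Cdkn1c passed the limits, where 0.45% of all genes did, and nothing is read from that count. Values of 3 of the 4 knockout nerves lay above all control nerves for Cdkn1a and Cdkn1b and below all of them for Cdkn2a, mouse KO-177 being the exception each time. Without mouse KO-177 the difference of Cdkn2a was -1.57 (SE 0.29), that of Cdkn2b -0.86 (SE 0.25) and that of Cdkn1c -1.28 (SE 0.34). This mouse was singled out after the values were seen, in the contrast by which Cdkn1c was picked, so nothing is read from them. Mitochondrially encoded genes took 17.2% to 21.6% of the counts of injured control nerves at 4 wpc and 2.95%, 12.6%, 9.84% and 20.2% of those of the knockout nerves, the last again mouse KO-177, and their part in these values was not tested.

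The difference between genotypes in the response to injury was tested as well. At 2 wpc edgeR called 0 of 7 members and DESeq2 0, as edgeR did for 0% of all genes, and 0 had an unadjusted p under 0.05. At 4 wpc edgeR called 0 of the 6 counted and DESeq2 0, again with a background of 0%, and 1 had an unadjusted p under 0.05. That was Cdkn1a, whose response was 0.62 higher in Lepr-cKO on the log2 scale (SE 0.30, edgeR adjusted p = 0.454). For Cdkn2a the difference was -0.75 (SE 0.43, edgeR adjusted p = 0.523) and for Cdkn1c, untested, -1.28 (SE 0.41).

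The kinases that the inhibitors bind, and the cyclins that activate them, mostly rose with injury. The counts are again on adjusted p alone. Of 12 cyclin and kinase genes, 11 rose in Lepr-ctrl at 2 wpc and 9 at 4 wpc, where 1 fell, and 12 and 11 rose in Lepr-cKO. The largest changes in Lepr-ctrl at 2 wpc were those of Cdk1, the mitotic kinase, with 4.56 (SE 0.38, edgeR adjusted p = 2.77e-12), Ccnb1 with 4.09 (SE 0.54, edgeR adjusted p = 5.26e-08) and Ccna2 with 3.67 (SE 0.34, edgeR adjusted p = 2.36e-11), both cyclins of the later cycle. At 4 wpc in Lepr-ctrl, Cdk1 stood at 1.68 (SE 0.39, edgeR adjusted p = 3.21e-04), Ccnd2 at 1.54 (SE 0.24, edgeR adjusted p = 1.03e-06) and Cdk6, a kinase held by INK4 proteins, at 1.37 (SE 0.23, edgeR adjusted p = 2.88e-06).

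Genes of dividing cells were high at 2 wpc, when Cdkn2c was high as well. All 10 listed genes rose at 2 wpc in each genotype, and their log2 fold changes had medians of 3.65 (Lepr-ctrl) and 3.25 (Lepr-cKO), against 0.08 and 0.10 over all genes. At 4 wpc, 5 rose and 1 fell in Lepr-ctrl (median 0.83), and 9 rose in Lepr-cKO (median 1.98). Top2a, the topoisomerase of dividing cells, had 4.03 (SE 0.35, edgeR adjusted p = 4.91e-12) at 2 wpc and 1.07 (SE 0.35, edgeR adjusted p = 0.00738) at 4 wpc in Lepr-ctrl, and 3.58 (SE 0.32, edgeR adjusted p = 7.9e-12) and 2.74 (SE 0.35, edgeR adjusted p = 6.52e-08) in Lepr-cKO. The response at 4 minus that at 2 wpc was lower for 10 of 10 in Lepr-ctrl, as it was for 5.05% of all genes on adjusted p alone, and it passed for 0 of 10 in Lepr-cKO, where 0.575% of all genes were lower. A difference between the genotypes in the response passed for 0 of 10 at either time, as for 0% of all genes.

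Downstream of the kinases lie the retinoblastoma proteins and the E2F family of factors, only some of which these proteins hold. The genes listed were Rb1, Rbl1, Rbl2 and E2f1 to E2f8. Of 11 such genes, 8 rose and 3 fell in Lepr-ctrl at 2 wpc, 6 rose and 2 fell at 4 wpc, 7 rose and 2 fell in Lepr-cKO at 2 wpc, and 4 rose and 2 fell at 4 wpc. E2f2, an activating E2F, rose by 4.14 (SE 0.33, edgeR adjusted p = 5.66e-13) in Lepr-ctrl at 2 wpc, and E2f1 by 2.89 (SE 0.18, edgeR adjusted p = 2.1e-15). Rb1, the retinoblastoma gene, fell by 0.57 at 4 wpc (SE 0.12, edgeR adjusted p = 8.43e-05).

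Cdkn1a moved against most of the p53 pathway genes listed. Of 15 genes other than Cdkn1a (Trp53, its regulators and its targets), 9 rose in 3 of the injury comparisons and 10 in Lepr-ctrl at 4 wpc, and 1 fell in each. Gadd45a, a stress gene, rose by 3.03 (SE 0.19, edgeR adjusted p = 3.9e-15) at 2 wpc and 3.67 (SE 0.20, edgeR adjusted p = 6.14e-16) at 4 wpc in Lepr-ctrl, and Eda2r, a death receptor gene, by 1.58 (SE 0.32, edgeR adjusted p = 6.18e-05) and 1.57 (SE 0.35, edgeR adjusted p = 2.16e-04). The gene that fell with Cdkn1a was Sesn1, by 1.16 (SE 0.13, edgeR adjusted p = 1.42e-09) in Lepr-ctrl at 2 wpc. Among those that did not pass there were Mdm2 with 0.01 (SE 0.09, edgeR adjusted p = 0.905) and Phlda3 with 0.02 (SE 0.17, edgeR adjusted p = 0.91). Both starts of Cdkn1a are shown above with the p53 core, a motif chosen after the sequences were seen, before the upstream one.

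Genes for the removal of the inhibitor proteins and for silencing of the Cdkn2a locus moved in both directions. Of 10 ubiquitin ligase genes and partners, 5 rose and 5 fell in Lepr-ctrl at 2 wpc, 4 rose and 1 fell at 4 wpc, 5 rose and 3 fell in Lepr-cKO at 2 wpc, and 3 rose and 1 fell at 4 wpc. Skp2, which marks p27 for breakdown, rose by 0.84 (SE 0.18, edgeR adjusted p = 9.95e-05) and its partner Cks1b by 1.92 (SE 0.16, edgeR adjusted p = 2.01e-12) in Lepr-ctrl at 2 wpc. Of 9 polycomb genes, which keep the locus shut in many cells, 2 to 4 rose and 2 fell in each injury comparison. Ezh2, the methyltransferase, rose by 1.35 (SE 0.13, edgeR adjusted p = 4.37e-11), and Cbx7, a reader of its mark, fell by 1.24 (SE 0.13, edgeR adjusted p = 1.9e-10) in Lepr-ctrl at 2 wpc.

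The genes whose log2 CPM ran most nearly parallel to each member over the 39 libraries were found among 12787 genes, as a description, since all libraries share the split between healthy and injured nerve. They were Slc20a2 (Pearson r = 0.989), Ndrg1 (0.982) and Paqr7 (0.979) for Cdkn1a, and Bicd1 (0.966), Rab33b (0.961) and Kcnh7 (0.960) for Cdkn1b. For Cdkn2a they were Cdk18 (0.975), Spi1 (0.970) and Ptk2b (0.970), and for Cdkn2b Meox1 (0.947), Gdf11 (0.941) and Epb41l1 (0.938). Cdkn1c had Rasgrp2 (0.869), Bgn (0.864) and Ddr2 (0.854), Cdkn2c had Ptn (0.906), Loxl2 (0.867) and Axl (0.858), and Cdkn2d had lower values with Igsf8 (0.761), Egfl8 (0.754) and Lrp3 (0.754). Among the members themselves, Cdkn1a and Cdkn1b had r = 0.847 and Cdkn1b and Cdkn2b r = -0.847.

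Most injury results were kept without the libraries that stood apart. The injured Lepr-cKO nerve of mouse SLRKO2wpc126 at 2 wpc had a sum of 35327 CPM over 8 skeletal muscle markers, while the other injured nerves of all groups stayed under 30 CPM; without it the changes were -2.19 for Cdkn1a, -1.09 for Cdkn1b, 0.74 for Cdkn1c, 2.23 for Cdkn2a, 1.57 for Cdkn2b and 0.66 for Cdkn2c, all with adjusted p below 0.05. The injured Lepr-ctrl nerve of mouse SLRKO2wpc144 at 2 wpc had 33.0% mitochondrially encoded counts and the lowest myelinating marker sum, and without it the changes were -1.86, -1.33, 0.79, 2.12, 1.28 and 1.19 in the same order, likewise below 0.05. Adipocyte markers summed to more than 30 CPM in 3 of 21 healthy and 9 of 18 injured nerves, and 6 of 6 rose in Lepr-ctrl at either time and 0 of 6 passed in Lepr-cKO. Few libraries carried these markers, which were at 0 in 3 to 16 of the 39 libraries. Injured Lepr-ctrl nerves at 2 wpc had a median sum of 0.549 CPM and a highest of 71.1 CPM, and healthy Lepr-cKO nerves at 2 wpc reached 86.6 CPM. The genotype difference in the injury response did not pass for any of them at either time. Repair Schwann cell markers rose for 8, 6, 8 and 8 of 9 and pericyte markers fell for 5, 5, 4 and 5 of 5 (Lepr-ctrl at 2 and 4 wpc, then Lepr-cKO), fibroblast, endothelial, perineurial and mast cell markers passed for 1 to 5 of 4 to 7, and the part of these cells was not tested. Lepr, the floxed gene, differed between genotypes by -0.54 to 0.39 on the log2 scale with 0 of 4 comparisons passing (edgeR adjusted p = 0.362 to 1), and counts over the whole gene do not check the loss of 1 exon in 1 cell type.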

How the data were processed

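Bulk RNA of mouse sciatic endoneurium (39 libraries) was sequenced as single reads from an unstranded kit. Per the submitters' processing notes, the authors used bcl2fastq 2.20.0.422, STAR 2.5, featureCounts 1.5.0-p1 and GRCm38; strand and multimapping settings are not given in the sources used here. The deposited values are raw counts per gene, 1 table a library, not normalized. Groups came from the titles. Gene names came from GENCODE M21 (99.8% of genes matched). Genes with low counts were removed (filterByExpr, minimum count 10 and total 15), libraries were scaled by TMM, and edgeR 4.0.16 (quasi-likelihood, R 4.3.3) was fitted over all 39 libraries with Benjamini-Hochberg adjustment over all 18442 genes. Calls needed adjusted p below 0.05 and a log2 fold change over 1 in size. Intervals are 1.96 SE. DESeq2 1.42.0 and other settings were alternatives. Log2 CPM used a prior count of 2, and CPM per kb the summed exon length.

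The 7 members and all gene lists were chosen with earlier results of these data known. One item of a marker list is not reported here. All 7 members were named in every comparison, and for each member the 3 genes with the highest correlation. From the gene lists some genes with a passing change were named as examples, not always those with the largest changes. Same-numbered libraries are the 2 nerves of 1 mouse; over 5000 genes their deviations correlated from -0.116 to 0.567, above 0.1 in 14 of 17 mice. Within groups, libraries differed by more than sampling noise, with no sign of one library deposited more than once. Counting error is small at these depths (Cdkn2a, the lowest member, had at least 40 counts).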

Additional observations from a re-analysis of the deposited data

Results flagged for a closer look

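For each member, the highest and lowest library of each group was compared with the gap to its nearest neighbour (56 groups, 3 of which stood out, where chance alone marks about 1 in 20). Cdkn2a was at 3.52 CPM in the healthy Lepr-cKO nerve of mouse KO-179 at 4 wpc, against 2.23 to 2.504 in the other 4. Cdkn2b was at 15 CPM in the injured Lepr-ctrl nerve of mouse WT-170 at 4 wpc, against 27.5 to 28.7 in the other 3, and at 34.9 CPM in the injured Lepr-cKO nerve of mouse KO-177, against 11.5 to 15.5 in the other 3. The injury response differed between time points for 2 members. That of Cdkn2a in Lepr-ctrl was higher by 1.77 at 4 than at 2 wpc on the log2 scale, and that of Cdkn1a in Lepr-cKO by 1.22. The mice differed between the time points as well.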

How the results depend on the processing

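DESeq2, other scalings and filters, fits of the compared groups alone, the replicate block and the omission of single libraries were tried. Of the 644 member fold changes under settings other than leaving out a library, 633 kept their direction and their side of the threshold, and 1072 of 1092 did when 1 library was left out. On adjusted p alone the injury counts of members were 6 (from 5) and 4 (from 3) in Lepr-ctrl at 2 and 4 wpc and 6 (from 4) and 4 (from 2) in Lepr-cKO. Under the other settings that kept all libraries, a count changed in 1 case, to 2 (from 1) for the change of the injury response over time in Lepr-ctrl with library totals without TMM. Leaving out 1 library gave 4 to 5, 3 to 4, 4 to 4 and 2 to 3 called members for injury (Lepr-ctrl at 2 and 4 wpc, Lepr-cKO at 2 and 4 wpc), 0 to 1 for genotype in injured nerves at 4 wpc, 1 to 2 and 0 to 1 for the change over time in Lepr-ctrl and Lepr-cKO, and 0 to 0 for the other genotype comparisons.

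With the replicate block (both nerves of a mouse paired), Cdkn2d at 2 wpc in Lepr-ctrl changed by 0.39 and Cdkn2c over time by -0.97, both passing on adjusted p, and the block took no other member across that threshold. Cdkn1c at 2 wpc in Lepr-ctrl no longer passed on adjusted p with no expression filter (adjusted p = 0.0546) and in the compared groups alone (adjusted p = 0.0779), over a range of 0.0024 to 0.0779 across the alternatives that kept all libraries. The cause was not tested. Injured nerves at 4 wpc were the shallowest (10905806 to 25923752 counts).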
